A study of Mus musculus with 12 samples.

Results

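Blk and 8 genes that mark B and T lymphocytes were examined in RNA from the left ventricle (LV) of 12 mouse offspring. The 9 genes were chosen by name, from 46983 genes in the count files, and all 9 had a row there. Blk was put in the set because it is on the study's own list of genes changed in the diabetes-exposed Hif1a+/- LV, a list made from these same samples, so the Blk levels by group are a description, and a test of Blk between these groups is no evidence of its own. The other genes are Cd79a, Cd79b, Ms4a1 and Ighm, which mark B cells, and Cd3e, Cd3g, Cd8a and Cd4, which mark T cells.

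The offspring were 12 weeks old and of the FVB strain. They were Wt or Hif1a+/-, the latter carrying the Hif1a tm1jhu null allele in every cell of the body, and all had a Wt mother and a Hif1a+/- father. The mother was either non-diabetic or had been made diabetic with streptozotocin before mating. There were 3 samples, each from a different animal, in each of 4 groups: Wt non-diabetic, Wt diabetic, Hif1a+/- non-diabetic and Hif1a+/- diabetic, in which "diabetic" refers to the pregnancy and not to the offspring. RNA of the whole LV was sequenced as 3′-seq, which reads mainly the 3′ end of each transcript, so the values are averages over all cells of the tissue.

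B cells carry the antigen receptor, a membrane immunoglobulin whose heavy chain of the IgM class is encoded by Ighm, together with the signalling chains CD79A and CD79B. Blk is a kinase of the Src family that is known mainly from B cells, where it acts with the receptor. T cells recognise antigen with a receptor that signals through the CD3 chains, and the coreceptors CD4 and CD8 divide them into helper and cytotoxic cells. Healthy heart muscle holds a small number of lymphocytes beside a larger population of resident macrophages.

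Gene counts in a library summed to 16132442 at the least and 39812939 at the most (median 22260865). The cardiomyocyte gene Myh6, the heavy chain of cardiac myosin, had 30102 ± 1567 CPM (counts scaled to 1e+06 per library with TMM factors, SD, n = 12), whereas 7 of the 8 B and T cell genes of the set had means under 1 CPM. Of the 9 genes, 4 (Blk, Ighm, Cd4 and Cd3e) passed the filter on low counts of the edgeR fit, and the other 5 have no fitted fold change here. The Wt non-diabetic replicate 25 held 7357 CPM of red cell RNA summed over 6 genes, against 186 to 1778 CPM in the other samples. Its sum of Cd79a, Cd79b and Ms4a1 was 0.436 CPM, from 7 counts, in a range of 0.385 to 0.830 over the 12 samples. Its sum of Cd3e, Cd3g, Cd8a and Cd4 was 1.49 CPM, in a range of 0.732 to 2.90, although Cd3g had 0 counts. All samples are labelled female, whereas the study describes male offspring. The Y-linked genes exceeded Xist in 11 of 12 samples and were below it in Hif1a+/- diabetic replicate 72, so values that moved most with this animal are given without it as well. Hif1a itself was not lower in the heterozygous groups, at 85.7 ± 6.01 and 72.3 ± 8.49 CPM against 61.5 ± 8.96 and 55.3 ± 6.37 CPM in the Wt groups of non-diabetic and diabetic pregnancy (SD, n = 3). Reads from the 3′ end may lie outside the deleted part of the allele, so this does not check the genotype.

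Blk, the kinase, lies on mouse chromosome 14 (GRCm38, chr14:63372836-63417037, minus strand, 13 exons in its longest transcript) and overlaps no other annotated gene. In the Wt non-diabetic group the 3 samples had 4.48, 6.27 and 4.01 CPM. The Wt diabetic samples had 3.28, 3.88 and 3.26 CPM, all below the Wt non-diabetic samples. The Hif1a+/- non-diabetic samples had 5.41, 4.73 and 6.03 CPM, within the range of the Wt non-diabetic group. The Hif1a+/- diabetic samples had 2.29, 1.72 and 4.02 CPM. All 3 were below every Hif1a+/- non-diabetic sample, whereas animal 77 of this group, at 4.02 CPM, was level with the lowest Wt non-diabetic animal. Over both genotypes, 5 of the 6 samples from diabetic pregnancy lay below all 6 from non-diabetic pregnancy, with a mean of 3.07 ± 0.904 against 5.16 ± 0.900 CPM (SD, n = 6).

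The fitted log2 fold change of Blk in Hif1a+/- diabetic was -1.02 (SE 0.27) against Hif1a+/- non-diabetic and -0.89 (SE 0.27) against Wt non-diabetic. Without animal 72, these differences were -0.79 and -0.66. Without animal 77 they were -1.41 and -1.28. In Wt, the difference between diabetic and non-diabetic pregnancy was -0.50 (SE 0.27), or -0.28 without Wt non-diabetic replicate 42, and the interaction of genotype and maternal diabetes was -0.53 (SE 0.38). Of all 14706 genes tested, 13.2% had all 3 Hif1a+/- diabetic samples below all 3 Hif1a+/- non-diabetic samples, and 3.4% had the same order in Wt. Because Blk was selected on these samples, nothing is read from its place among those genes. In whole tissue, fewer cells of a type and less RNA per cell cannot be told apart.

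**Figure D1:**
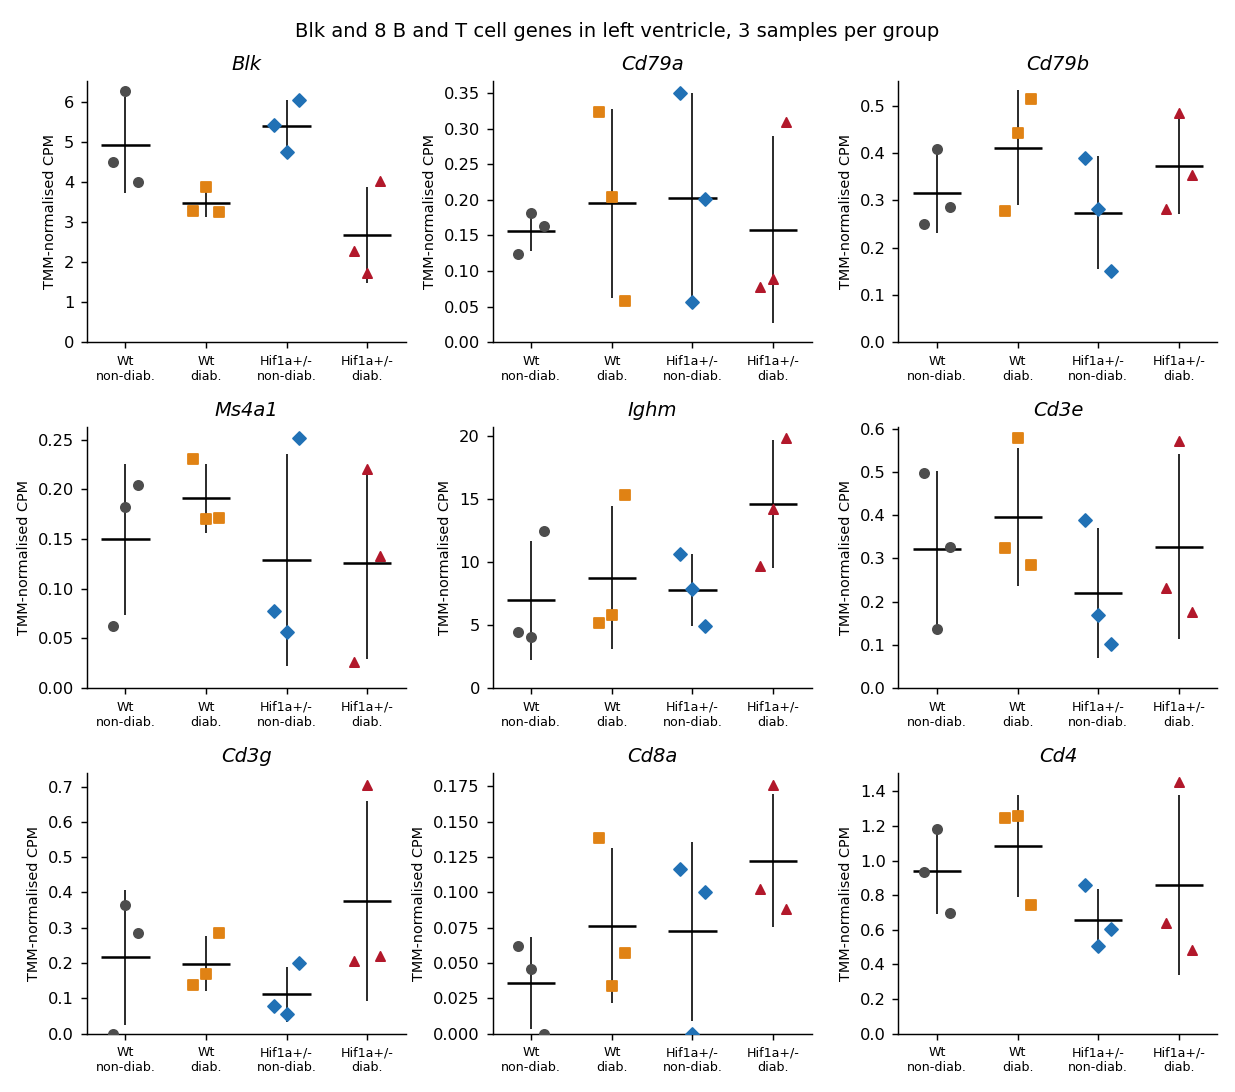
TMM-normalised CPM of Blk, 4 B cell genes and 4 T cell genes (y axes, each from 0) in the 4 groups (x axes). Points are samples, horizontal bars the mean of 3 and vertical lines the SD. In Blk, 5 of the 6 samples from diabetic pregnancy lie below all 6 from non-diabetic pregnancy, whereas Cd79a, Cd79b, Ms4a1, Cd3e and Cd4 overlap between every pair of groups.

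Blk exceeded the other B cell genes of the set apart from Ighm, per length and in counts. Over the 12 samples together Blk had 1112 counts, whereas Cd79a had 50, Cd79b 96 and Ms4a1 40. Scaled to the length of the longest transcript, Blk had a mean level of 1.77 ± 0.596 CPM per kilobase (SD, n = 12), and its lowest sample, at 0.738, exceeded the highest sample of each gene in the set except Ighm. The summed level of Cd79a, Cd79b and Ms4a1 was 0.410 ± 0.105 CPM per kilobase, below Blk in 12 of 12 samples, and the ratio of Blk to this sum ran from 1.57 to 8.01. The lowest ratio was that of animal 72, the sample with the least Blk.

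The level per kilobase fell in the order Ighm (5.60 ± 2.99), Blk (1.77 ± 0.596), Cd4 (0.284 ± 0.105), Cd79b (0.240 ± 0.0750), Cd3e (0.124 ± 0.0649), Cd79a (0.122 ± 0.0717), Cd3g (0.0889 ± 0.0721), Ms4a1 (0.0484 ± 0.0248) and Cd8a (0.0246 ± 0.0172). Ighm was above Blk in 11 of 12 samples and Blk above Cd4 in 12 of 12, and both gaps exceeded the summed SDs of the 2 genes. Below Blk, no gap between neighbours in this order exceeded their summed SDs, although that from Cd79b to Cd3e exceeded each SD alone, with Cd79b higher in 11 of 12 samples. Reads from the 3′ end do not grow with the length of the transcript, so the order per kilobase is a convention here, and by counts alone Blk also exceeded each of these genes but Ighm in 12 of 12 samples.

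**Figure D2:**
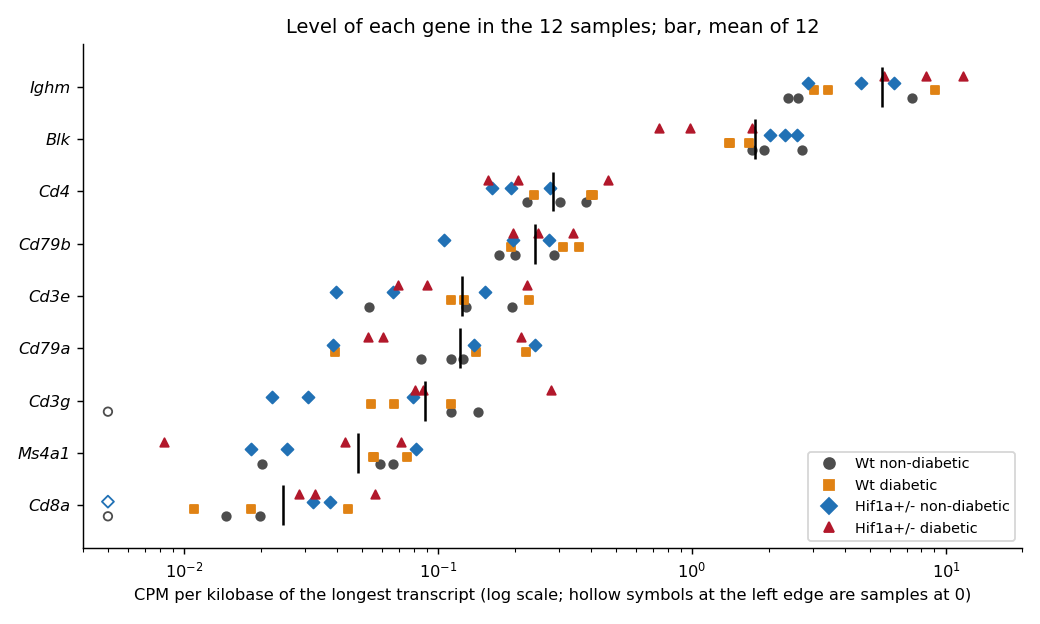
Level per kilobase of the longest transcript (x axis, log scale) for the 9 genes (y axis) in the 12 samples, with the group given by colour and shape and the mean of 12 as a bar. Blk, from 0.738 to 2.70, stands apart from Cd4 and the genes below it, whose highest sample is at 0.467.

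The group means of the signalling chains of the B cell receptor were not in the order of Blk, but counts this low do not resolve their order. Cd79a (GRCm38, chr7:24897381-24902197) had 10, 14, 14 and 12 counts in Wt non-diabetic, Wt diabetic, Hif1a+/- non-diabetic and Hif1a+/- diabetic, summed over 3 samples. Cd79b (chr11:106311341-106314762) had 20, 28, 18 and 30 counts in the same order. These summed counts are not corrected for library size. The mean CPM in this order was 0.157, 0.195, 0.203 and 0.158 for Cd79a. For Cd79b it was 0.315, 0.411, 0.274 and 0.373. Single samples had 1 to 9 counts of Cd79a and 3 to 13 of Cd79b, and for both genes every pair of groups overlapped on the CPM scale.

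Ms4a1 (chr19:11249675-11266241), which encodes the B cell surface protein CD20, had 10, 13, 8 and 9 counts in the 4 groups, with 1 to 5 counts in a sample. Corrected for library size, its means in the same order were 0.149, 0.191, 0.129 and 0.126 CPM. The summed level of Cd79a, Cd79b and Ms4a1 was 0.621 ± 0.171 CPM in Wt non-diabetic, 0.797 ± 0.0473 in Wt diabetic, 0.605 ± 0.212 in Hif1a+/- non-diabetic and 0.657 ± 0.236 in Hif1a+/- diabetic (SD, n = 3). These sums overlapped between Hif1a+/- diabetic and each of the other groups. Without animal 72 the Hif1a+/- diabetic mean was 0.590 CPM. Counting error alone was wide at this depth. The count ratio of Hif1a+/- diabetic to Hif1a+/- non-diabetic, corrected for library size, was 0.644 for Cd79a (95% interval 0.272 to 1.5) and 1.25 for Cd79b (0.675 to 2.38), in exact intervals that cover counting error only. A difference of the size seen for Blk, with a ratio of 0.480 (0.403 to 0.570), lies within the interval of Cd79a and outside that of Cd79b. An antisense gene, 4930526L06Rik, overlaps Ms4a1, and whether the counting used the strand is not given in the sources used here, so reads of the pair cannot be told apart.

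Ighm (chr12:113418558-113422730), the IgM heavy chain, had the highest level per kilobase of the set. The Wt non-diabetic samples had 4.42, 4.05 and 12.4 CPM. The Wt diabetic samples had 5.12, 5.82 and 15.3 CPM, and the Hif1a+/- non-diabetic samples 10.6, 7.89 and 4.88 CPM. In these 3 groups the animals differed widely, with Wt animals 89 and 80 far above the other 2 of their group. The Hif1a+/- diabetic samples had 9.68, 14.2 and 19.8 CPM, the highest group mean at 14.6 ± 5.09 against 6.96 ± 4.73 CPM in Wt non-diabetic (SD, n = 3), and yet the ranges overlapped. The log2 fold change of Ighm in Hif1a+/- diabetic was 1.03 (SE 0.48, edgeR adjusted p = 0.562) against Wt non-diabetic and 0.89 (SE 0.47, edgeR adjusted p = 0.462) against Hif1a+/- non-diabetic, neither past the threshold of 0.1. Wt non-diabetic replicate 89 weighed on the first value, which was 1.78 without it (edgeR adjusted p = 0.200).

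The group means of the T cell genes were not in the order of Blk either, and low counts again do not resolve their order. Cd3e (chr9:44998740-45009627), a chain of the CD3 complex, had 19, 29, 15 and 26 counts in Wt non-diabetic, Wt diabetic, Hif1a+/- non-diabetic and Hif1a+/- diabetic. Cd4 (chr6:124864692-124888221), the helper cell coreceptor, had 58, 77, 43 and 69 counts. Corrected for library size, the means in the same order were 0.321, 0.396, 0.220 and 0.327 CPM for Cd3e. For Cd4 they were 0.937, 1.08, 0.656 and 0.860 CPM. In Hif1a+/- diabetic against Hif1a+/- non-diabetic the log2 fold changes were 0.43 (SE 0.62, edgeR adjusted p = 0.801) for Cd3e and 0.33 (SE 0.42, edgeR adjusted p = 0.765) for Cd4, both smaller than their errors. Without animal 72 both turned negative, at -0.14 for Cd3e and -0.21 for Cd4. Gm48719, antisense to Cd3e, and Gm48720 both overlap it, so part of its few counts is uncertain.

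Cd3g (chr9:44969572-44980431), another CD3 chain, had 0, 8 and 7 counts in the Wt non-diabetic samples, 3, 5 and 5 in Wt diabetic, 2, 1 and 4 in Hif1a+/- non-diabetic and 8, 16 and 5 in Hif1a+/- diabetic. On the CPM scale all 3 Hif1a+/- diabetic samples were above all 3 Hif1a+/- non-diabetic samples, with a count ratio of 3.11 (95% interval 1.33 to 8.41). The same order was held by 11.2% of all genes tested, which had passed the filter that Cd3g did not. Animal 72 held 16 of the 29 counts, and without it the ratio was 1.91 (0.708 to 5.65), an interval that includes 1. Animals 66 and 77, at 0.206 and 0.221 CPM, were just above the highest Hif1a+/- non-diabetic sample, at 0.201 CPM. The 0 counts of Wt non-diabetic replicate 25 allow a level of up to 0.186 CPM, which is 3 counts in that library.

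Cd8a (chr6:71373427-71379173), the cytotoxic cell coreceptor, had the lowest level per kilobase, with 2, 5, 5 and 10 counts in the 4 groups and 0 counts in Wt non-diabetic replicate 89 and Hif1a+/- non-diabetic replicate 32, which allow up to 0.123 and 0.167 CPM. Corrected for library size, the means of Cd8a in the 4 groups were 0.0359, 0.0765, 0.0725 and 0.122 CPM. The 3 Hif1a+/- diabetic samples, at 4, 4 and 2 counts, were above the Wt non-diabetic samples, at 1, 1 and 0, on the CPM scale. That order was held by 7.47% of all genes tested, which had passed the filter that Cd8a did not. The count ratio was 3.71 with a 95% interval from 0.790 to 34.8, so at this depth no difference was detectable.

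The summed level of Cd3e, Cd3g, Cd8a and Cd4 was 1.51 ± 0.210 CPM in Wt non-diabetic, 1.75 ± 0.345 in Wt diabetic, 1.06 ± 0.358 in Hif1a+/- non-diabetic and 1.69 ± 1.06 in Hif1a+/- diabetic (SD, n = 3). The wide spread of the last group came from animal 72, at 2.90 CPM against 1.18 and 0.972 in animals 66 and 77. Without animal 72 the mean was 1.08 CPM, next to that of Hif1a+/- non-diabetic. This animal, whose Y-linked genes were below Xist, had the highest T cell sum and the lowest Blk level of the 12.

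With edgeR's quasi-likelihood test, none of the 4 genes tested was called at an adjusted p of 0.1 in any of the 5 pairwise comparisons or in the interaction, where 0% of all genes were called as well. Blk is left out of the counts that follow, because it was chosen on these samples. At an unadjusted p of 0.05, 1 of the other 3 genes, Ighm, passed in Hif1a+/- diabetic against Wt non-diabetic (8.85% of all genes) and 0 passed against Hif1a+/- non-diabetic (12%). In the other 4 comparisons 0 of 3 passed, against 5.35% of all genes for Hif1a+/- diabetic against Wt diabetic, 2.78% for the Wt groups, 0.959% for Hif1a+/- against Wt non-diabetic and 2.52% for the interaction. DESeq2 called 0 of the 8 genes other than Blk in the 6 comparisons. For Hif1a+/- diabetic against Hif1a+/- non-diabetic it gave an adjusted p to 13951 genes only, since it sets aside genes with low mean counts. Cd3e, with 89 counts in all, had none there, nor did the B cell gene Ighd, with 135. Cd79a, Cd79b, Ms4a1, Cd3g and Cd8a had fewer counts than Ighd, so the 0 calls say nothing of them in that comparison. DESeq2 called 1.44% of the genes with an adjusted p for Hif1a+/- diabetic against Hif1a+/- non-diabetic, 0.453% against Wt non-diabetic and 0.155% against Wt diabetic. It called 0.0148% for the Wt groups, 0.00369% for Hif1a+/- against Wt non-diabetic and 0% for the interaction. The median log2 ratio of group means in Hif1a+/- diabetic was taken over all 9 genes, Blk included. It was 0.03 against Wt non-diabetic, 0.45 against Hif1a+/- non-diabetic and -0.28 against Wt diabetic, so its sign changed with the control group. The same median over all 14706 genes tested, which leave out Cd79a, Cd79b, Ms4a1, Cd3g and Cd8a for low counts, was -0.0025, -0.0034 and -0.0079. These comparisons share the Hif1a+/- diabetic samples.

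Few of the genes had groups that did not overlap, with Blk set apart because it was chosen on these samples. The shares given are over the genes that passed the filter, which Cd79a, Cd79b, Ms4a1, Cd3g and Cd8a did not. In Hif1a+/- diabetic against Hif1a+/- non-diabetic, no gene other than Blk was below in all 3 samples. In that comparison 1 gene (Cd3g) was above, where 13.2% of all genes were below and 11.2% above. Against Wt non-diabetic 0 were below and 1 (Cd8a) above, against 7.11% and 7.47%, and against Wt diabetic 0 were below and 0 above, against 3.62% and 4.32%. In Wt diabetic against Wt non-diabetic no gene other than Blk was below and 0 were above, against 3.4% and 2.14%. In Hif1a+/- non-diabetic against Wt non-diabetic 0 were below and 0 above, against 2.26% and 2.55%.

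To ask whether Blk followed the lymphocyte genes from heart to heart, log2(CPM + 1) of Blk was correlated with that of each other gene over the 12 samples, in a family of 8 correlations with two-sided permutation tests. None passed after adjustment. The p-values are for all 12 samples with the groups included. Because Blk was chosen on these samples, the part of each correlation that lies between groups is a description. Pearson's r was 0.38 with Cd79a (p = 0.224, adjusted 0.324) and -0.37 with Cd79b (p = 0.243, adjusted 0.324), the 2 chains of the same receptor, and 0.007 with Ms4a1 (p = 0.984, adjusted 0.984). Spearman's rho was 0.32 (p = 0.320), -0.36 (p = 0.247) and -0.007 (p = 0.991) for the same 3 genes, with adjusted values of 0.390, 0.390 and 0.991. The 3 coefficients thus differed in sign.

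With the T cell genes and Ighm the coefficients were all negative. Pearson's r was -0.51 with Cd3g (p = 0.0906), -0.49 with Ighm (p = 0.112), -0.48 with Cd3e (p = 0.118) and -0.46 with Cd8a (p = 0.130), each with an adjusted p of 0.259, and -0.29 with Cd4 (p = 0.366, adjusted 0.419). Spearman's rho was -0.30 (p = 0.341), -0.53 (p = 0.0797), -0.50 (p = 0.0995), -0.33 (p = 0.291) and -0.31 (p = 0.330) in this order, each with an adjusted p of 0.390. Without the 2 samples farthest from the median of the other gene, r was 0.44 for Cd79a, -0.14 for Cd79b, -0.26 for Ms4a1, 0.005 for Cd3g, -0.49 for Ighm, -0.26 for Cd3e, -0.11 for Cd8a and 0.12 for Cd4. After the group means were taken out, which sets the groups aside, r was 0.55 for Cd79a, -0.53 for Cd3e, -0.28 for Cd4 and between -0.23 and 0.06 for the others. The coefficients without the group means were not tested. Over all samples, the r of -0.29 for Cd4 rested on animal 72 and was 0.06 without it.

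**Figure D3:**
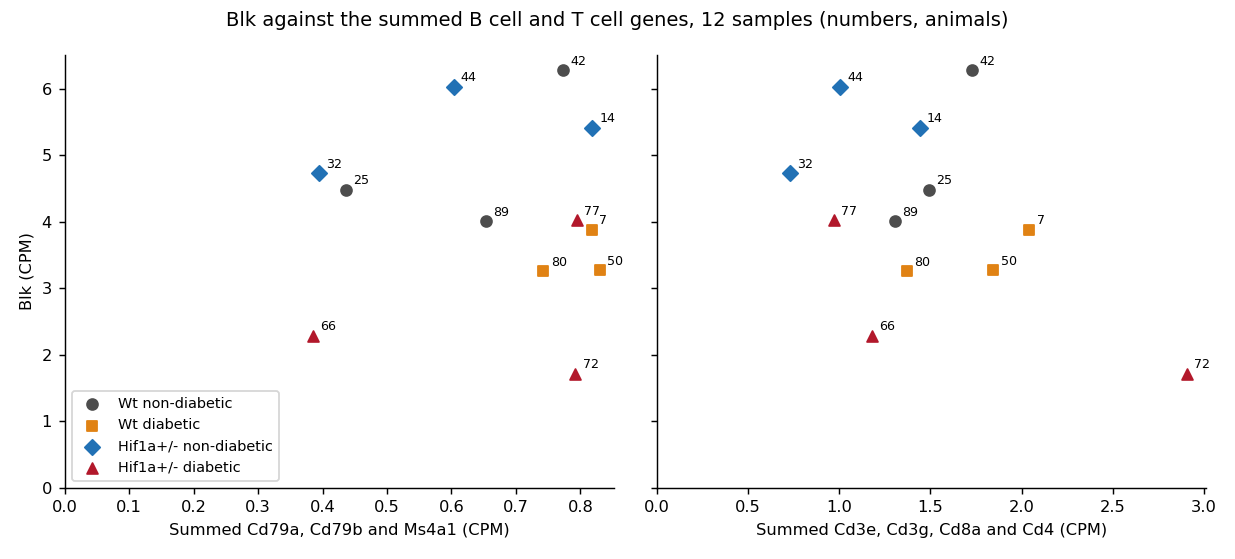
Blk in CPM (y axes) against the summed CPM of Cd79a, Cd79b and Ms4a1 (left, x axis) and of Cd3e, Cd3g, Cd8a and Cd4 (right, x axis) in the 12 samples, labelled by animal. At a B cell sum near 0.8 CPM, Blk ran from 1.72 (animal 72) to 6.27 CPM (animal 42), and animal 72 stands apart on the T cell axis at 2.90 CPM.

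The genes whose level over the 12 samples was most like that of Blk were Clcn3, a chloride and proton exchanger of endosomes (Pearson's r = 0.957 of log2(CPM + 1)), Fnbp1 (r = 0.939), Atp8a1, a phospholipid flippase (r = 0.932), Pde1c, a cyclic nucleotide phosphodiesterase (r = 0.919), and Herc3 (r = 0.912). These are the 5 highest among the 14706 genes tested, picked for their likeness, and are given as a description. Blk was chosen for its difference between these groups, so the ranking favours genes that differ in the same way. Herc3 and Atp8a1 are among the study's own differentially expressed genes, which were found in these same samples. Their means ran from 44.4 CPM for Herc3 to 92.8 CPM for Fnbp1. Herc3 had 50.7 ± 1.66 CPM in Wt non-diabetic and 51.1 ± 2.16 in Hif1a+/- non-diabetic, and 39.0 ± 2.20 in Wt diabetic and 36.8 ± 5.56 in Hif1a+/- diabetic (SD, n = 3). In Clcn3 the same order was shallower, with 54.8 ± 4.72, 58.5 ± 2.29, 52.0 ± 0.864 and 47.2 ± 4.64 CPM. In the same ranking Cd4, Cd3e and Ighm stood at places 10733, 12845 and 12935.

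The genes most like Cd79a were Naif1 (r = 0.805), Gm7598 (0.794), Mrgpre (0.775), Gm7832 (0.773) and Gm38150 (0.772), and Blk stood at place 946 with r = 0.38. The genes most like Cd3e were Ankra2 (r = 0.902), Cbarp (0.858), Tbx5 (0.842), Ccdc62 (0.836) and Lnx1 (0.835), with Cd4 at place 209 (r = 0.65) and Blk at place 13898. With 50 and 89 counts in all, Cd79a and Cd3e had coefficients of variation over the 12 samples of 58.7% and 52.4%, where counting alone gives 49.0% and 36.7% at their mean count. For Blk the values were 33.7% and 10.4%.

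**Figure D4:**
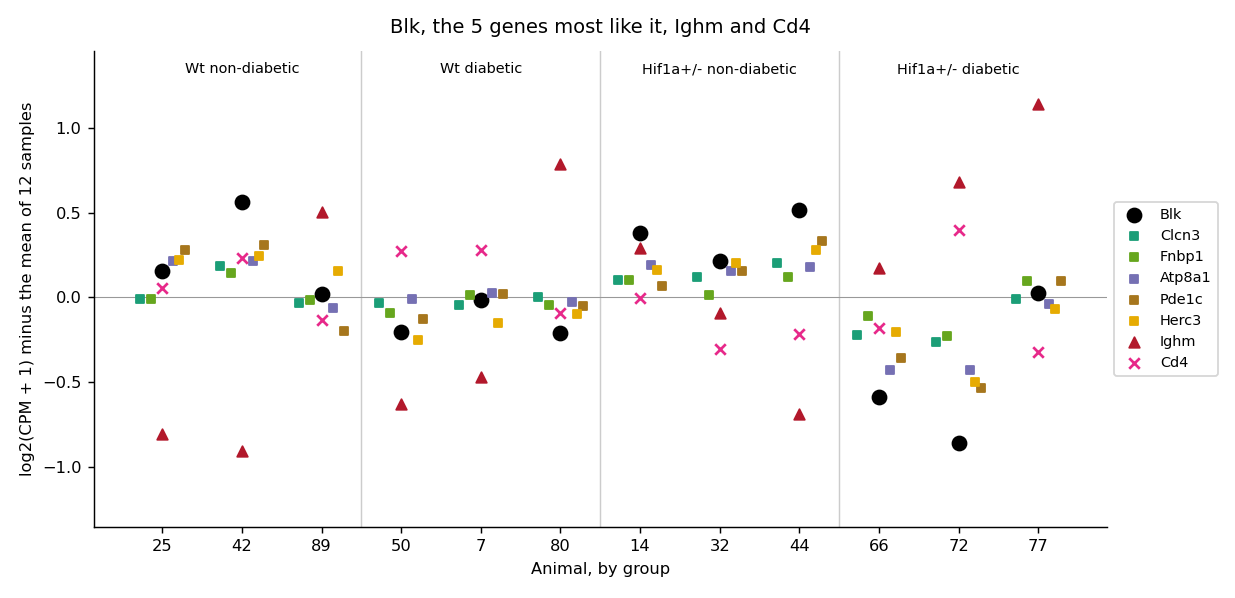
Difference of log2(CPM + 1) from the mean of the 12 samples (y axis) for Blk, the 5 genes most like it, Ighm and Cd4 in each animal (x axis, by group). The 5 genes lie on the same side of 0 as Blk in animals 42, 14, 32, 44, 66 and 72 but nearer to 0, whereas Ighm was highest in animal 77 of the Hif1a+/- diabetic group.

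Other genes of B and T cells, 51 in all on a B cell and a T cell list, were also rare. Of these, 43 had a mean under 1 CPM and 14 passed the filter. The B cell list summed to 11.4 to 21.2 CPM in a sample and the T cell list to 18.2 to 22.9 CPM. By CPM, without regard to length, the B cell list was led by Cd40, a receptor for T cell help (3.48 ± 0.572 CPM), the tetraspanin Cd37 (3.21 ± 0.895) and the adaptor Blnk (2.93 ± 0.697), each also known from myeloid cells. The T cell list was led by Cd28 (7.54 ± 1.18 CPM) and Ctla4 (4.50 ± 0.653), a pair of costimulatory and inhibitory receptors, and the transcription factor Bcl11b (3.45 ± 0.931), all SD with n = 12. These leading genes carried most of the T cell sum and were far above Cd3e (0.316 ± 0.165 CPM), so the sum mainly reflects them. Genes that define the lineages had few counts, with 18 in all for Pax5, 25 for Cd3d, 79 for Trac and 85 for Trbc2. Trac and Trbc2 encode constant chains of the T cell receptor. The light chain gene Igkc, the usual partner of the IgM heavy chain, had 267 counts against 2671 for Ighm.

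In the edgeR test 0 of the 14 genes were called in the 6 comparisons at an adjusted p of 0.1, and 0 with DESeq2. For Hif1a+/- diabetic against Hif1a+/- non-diabetic, DESeq2 gave no adjusted p to 1 of the 7 B cell and 3 of the 7 T cell genes. At an unadjusted p of 0.05, Cd37 was higher in Hif1a+/- diabetic than in Hif1a+/- non-diabetic (log2 fold change 0.58, SE 0.25, edgeR adjusted p = 0.402) and than in Wt diabetic (0.57, SE 0.25, edgeR adjusted p = 0.862), and it passed for the interaction (0.83, SE 0.36, edgeR adjusted p = 0.998). Trbc2 was higher in Wt diabetic than in Wt non-diabetic (1.44, SE 0.55, edgeR adjusted p = 1) and lower in Hif1a+/- diabetic than in Wt diabetic (-1.39, SE 0.52, edgeR adjusted p = 0.862). In Hif1a+/- diabetic, 0 of 14 passed against Wt non-diabetic (8.85% of all genes), 1 against Hif1a+/- non-diabetic (12%) and 2 against Wt diabetic (5.35%). In the Wt groups 1 passed (2.78%), in Hif1a+/- against Wt non-diabetic 0 (0.959%) and for the interaction 1 (2.52%). The median log2 fold change of the 14 in Hif1a+/- diabetic was 0.22 against Wt non-diabetic, 0.06 against Hif1a+/- non-diabetic and -0.12 against Wt diabetic.

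Downstream of both receptors, the genes of antigen receptor signalling are shared with other cells, and 19 of 20 passed the filter. The list was led by Plcg1 (84.9 ± 9.17 CPM), a phospholipase, and the kinases Fyn (56.0 ± 5.78) and Syk (38.1 ± 6.93, SD, n = 12). The summed level of the 20 was 338 ± 27.5 CPM in Wt non-diabetic, 332 ± 27.7 in Wt diabetic, 334 ± 15.8 in Hif1a+/- non-diabetic and 347 ± 20.7 in Hif1a+/- diabetic (SD, n = 3), within the spread of each group. Plcg1, Fyn and Syk carried much of this sum, so it says little of the rarer genes on the list. None of the 19 was called by edgeR, which called no gene at all. At an unadjusted p of 0.05, 5 of the 19 passed in Hif1a+/- diabetic against Wt non-diabetic (8.85% of all genes) and 6 against Hif1a+/- non-diabetic (12%). Against Wt diabetic 2 passed (5.35%) and for the interaction 1 (2.52%). In the Wt groups 0 passed (2.78%), as in Hif1a+/- against Wt non-diabetic (0.959%). DESeq2 called 3 of them, named here after their values were seen. Malt1, a protease of the receptor pathway, was lower in Hif1a+/- diabetic than in Wt non-diabetic (log2 fold change -1.12, DESeq2 adjusted p = 0.036). The exchange factor Vav1 (1.14, DESeq2 adjusted p = 0.0447) and the inhibitory receptor Fcgr2b (0.77, DESeq2 adjusted p = 0.059) were higher than in Hif1a+/- non-diabetic. All 3 genes are on the study's own list of genes changed in the diabetes-exposed Hif1a+/- LV. That list was made from these same samples, so these calls restate that choice.

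Ighm varied with the macrophage genes of the tissue. The macrophage and monocyte list, 13 genes led by the lysozyme Lyz2 (175 ± 58.6 CPM) and the complement genes C1qa (69.3 ± 26.8) and C1qc (59.3 ± 21.9), summed to 416 ± 84.3 CPM in Wt non-diabetic, 478 ± 131 in Wt diabetic, 356 ± 68.0 in Hif1a+/- non-diabetic and 688 ± 140 in Hif1a+/- diabetic (SD, n = 3). Over the 12 samples r between Ighm and this sum, on the log2(CPM + 1) scale, was 0.76 (p = 0.00417, adjusted 0.0250) and rho 0.80 (p = 0.00283, adjusted 0.0170), in a family of 6 correlations chosen after the data had been seen. It was 0.70 without the 2 samples farthest from the median of the sum, 0.70 after the group means were taken out, and 0.66 to 0.86 when any 1 sample was left out. With the sum of Cd79a, Cd79b and Ms4a1, r of Ighm was 0.20 (p = 0.531, adjusted 0.797) and rho 0.15 (p = 0.636, adjusted 0.763). The difference between these 2 coefficients was not tested. Lyz2, C1qa, C1qb, C1qc, Cd14, Mrc1 and Itgam of the macrophage list are on the study's own list of genes changed in the diabetes-exposed Hif1a+/- LV. That list was made from these same samples. The macrophage sums by group are therefore a description, as is the part of the Ighm correlation that lies between groups.

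The genes most like Ighm, added after the data had been seen, were Hpgds (r = 0.954), Gpr183 (0.954), Dpp3 (0.950), Cybb (0.948), a subunit of the phagocyte oxidase, and Ahnak2 (0.946). Blk and the macrophage sum had r = -0.55 (p = 0.0642, adjusted 0.193) and rho = -0.64 (p = 0.0289, adjusted 0.0868), but r was 0.28 after the group means were taken out. Blk was chosen on these samples, so the part of this correlation that lies between groups is a description. The part of the macrophage content in the levels of Ighm and Blk was not tested.

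**Figure D5:**
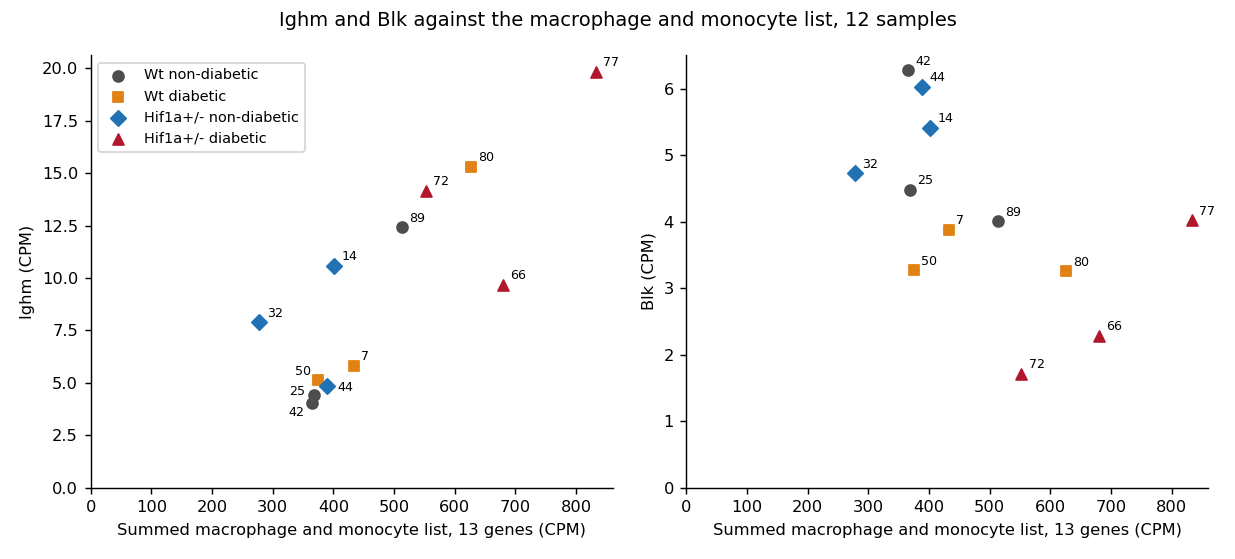
Ighm (left) and Blk (right) in CPM (y axes) against the summed CPM of 13 macrophage and monocyte genes (x axes) in the 12 samples, labelled by animal, with groups by colour and shape. Ighm was highest, at 19.8 CPM, in animal 77, which also had the highest macrophage sum, at 833 CPM.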

How the data were processed

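RNA of the LV was sequenced from 12 animals, 3 in each of 4 groups taken from the sample titles. The authors filtered reads with Trimmomatic and SortMeRNA, which removed ribosomal and mitochondrial reads, aligned them with STAR (version 2.5.2b) to GRCm38 with annotation M8, and used htseq-count in union mode to assign them to genes. The deposited counts are whole, unnormalized reads per gene. The 5 tally lines at the end of each file, which name no gene, held 20.2% to 24.2% of the reads and were left out. The authors also deposited a normalized signal for each gene, which is the count divided by the DESeq2 size factor of the sample. It was only used to check this.

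Symbols, coordinates and transcript lengths came from GENCODE M21 on GRCm38, and 46488 of 46983 identifiers had a symbol. Differences were tested with edgeR (4.0.16, in R 4.3.3), by its quasi-likelihood F-test on all 12 samples, with TMM normalization, the default filter by group (14706 of 27093 genes with a count were kept), 1 mean per group and Benjamini-Hochberg adjustment over all genes, at a threshold of 0.1. CPM values are TMM-normalized. In pairs of samples of a group, counts differed by 5.35 to 43.3 times sampling noise (chi-square per gene), so each sample was counted as its own replicate. Intervals of counts are exact Poisson or binomial intervals at 95%, the limit for a count of 0 is 3 counts, and both cover counting error only. Correlations used log2(CPM + 1) and 100000 permutations. Alternatives were DESeq2 (1.42.0), its size factors, no filter, at least 10 counts in every sample, a threshold of 0.05, limma-voom with sample weights (limma 3.58.1), a robust fit, only the groups compared, a pseudocount of 0.1 and leaving out each sample.

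The genes named are the 9 of the set, the 3 most abundant of each list, B and T cell genes past the threshold, the 5 genes most like Blk, Cd79a and Cd3e, and Hif1a. Pax5, Cd3d, Trac, Trbc2, Igkc, Cd37, Malt1, Vav1, Fcgr2b and the genes most like Ighm were named after their values were seen. The set and the lists were chosen with earlier results of these data known. Python 3.11.15 with scipy 1.17.1 and pandas 2.3.3 gave the summaries and correlations.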

Additional observations from a re-analysis of the deposited data

How the results depend on the processing

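The number of all genes called depended on the test, but 0 of the other lymphocyte genes were called under any alternative. For Hif1a+/- diabetic against Wt non-diabetic, Hif1a+/- non-diabetic and Wt diabetic, DESeq2 called 68, 201 and 24 genes, the fit with no filter 445, 592 and 220, and limma-voom 2, 937 and 1. For Wt diabetic and Hif1a+/- non-diabetic against Wt non-diabetic, DESeq2 called 4 and 1 genes and the fit with no filter 129 and 33, with 78 for the interaction. A fit of only the groups compared called 101 genes in Hif1a+/- diabetic against Hif1a+/- non-diabetic. Leaving out 1 sample gave 0 to 1, 0 to 38 and 0 to 2 genes in the first 3 comparisons, the 38 without Hif1a+/- diabetic replicate 72, and 0 to 1 for the interaction. Of the 9 genes, Blk was called against Hif1a+/- non-diabetic by DESeq2 (1) and limma-voom (1), and with no filter Blk and Ighm were called in the first 2 comparisons (2 and 2) and Ighm in the third (1). Blk was chosen on these samples, so its calls restate that choice. In all other alternatives 0 of the 9 were called. The cause was not tested.

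The correlations of Blk kept their sign and stayed past no threshold with a pseudocount of 0.1 and with DESeq2 size factors. Leaving out 1 sample, r ran from 0.28 to 0.50 for Cd79a, -0.51 to -0.15 for Cd79b, -0.29 to 0.26 for Ms4a1, -0.58 to -0.38 for Ighm, -0.61 to -0.26 for Cd3e, -0.71 to -0.04 for Cd3g, -0.57 to -0.16 for Cd8a and -0.47 to 0.06 for Cd4. It turned negative for Ms4a1 without Wt non-diabetic replicate 42 (-0.06), Hif1a+/- non-diabetic replicate 44 (-0.18) or Hif1a+/- diabetic replicate 66 (-0.29), and positive for Cd4 without Hif1a+/- diabetic replicate 72 (0.0625). The fitted log2 fold changes of Cd4, Cd3e and Ighm, none past the threshold, turned sign in 13 of the fits that left out 1 sample. In Hif1a+/- diabetic against Wt non-diabetic, Cd4 ran from -0.691 (without Hif1a+/- diabetic replicate 72) to 0.111 (without 77) and Cd3e from -0.545 (without 72) to 0.418. Against Hif1a+/- non-diabetic, Cd4 ran from -0.207 to 0.595 and Cd3e from -0.139 to 1.21, both lowest without 72. Cd3e ran from -0.96 to 0.0447 against Wt diabetic, positive without Wt diabetic replicate 7, and from -0.00657, without the same animal, to 0.795 in the Wt groups. Ighm ran from -0.368 (without Wt diabetic replicate 80) to 1.03 in the Wt groups and from -0.152 to 0.89 in Hif1a+/- against Wt non-diabetic. No paired analysis was possible because the animal numbers of the titles are shared by no 2 groups. Low counts limit Cd79a, Cd79b, Ms4a1, Cd3g and Cd8a, for which only counts and their intervals could be given.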

Other observations

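The NK and cytotoxic cell genes, led by the chemokine Ccl5 (0.381 ± 0.180 CPM), the granzyme Gzma (0.221 ± 0.0746) and Nkg7 (0.189 ± 0.122, SD, n = 12), all had means under 1 CPM, and their sum was 1.28 ± 0.251 CPM in Wt non-diabetic, 2.16 ± 0.365 in Wt diabetic, 1.52 ± 0.208 in Hif1a+/- non-diabetic and 1.30 ± 0.918 in Hif1a+/- diabetic (SD, n = 3), where it was 0.565 and 1.02 CPM in animals 66 and 77 and 2.33 CPM in animal 72. Of the plasma cell list, Sdc1 (6.93 ± 0.922 CPM), Prdm1 (4.37 ± 1.10) and Mzb1 (1.63 ± 0.365) led by CPM, and the list summed to 11.9 to 15.6 CPM. Among the 3 gamma-delta T cell genes analysed here, Sox13 (29.3 ± 3.50 CPM), a transcription factor not confined to T cells, led by CPM, the receptor chain Trdc had 0.145 ± 0.0813 CPM, and Il17a had 0 counts in all samples, which allows up to 3 counts in each. The precursor list was at or near 0 apart from Cd1d1 (3.11 ± 0.602 CPM), with Vpreb1 at 13 and Ptcra at 2 counts in all, and 3 of its 7 genes had no count in any sample.

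Genes of lymphoid tissue and lymphatic vessels were led by Prox1 (81.4 ± 7.60 CPM), Lyve1 (22.3 ± 9.03) and the chemokine Ccl21a (5.87 ± 1.34). Their sum was 105 ± 5.75 CPM in Wt non-diabetic, 114 ± 9.93 in Wt diabetic, 116 ± 1.66 in Hif1a+/- non-diabetic and 123 ± 3.16 in Hif1a+/- diabetic. On the same list Cxcl13, Madcam1, Ccl19 and Glycam1 had only 22, 9, 2 and 0 counts in all, so this sum is mainly that of Prox1 and Lyve1. The plasmacytoid dendritic cell list, led by Tcf4 (110 ± 11.6 CPM), Bst2 (15.3 ± 3.10) and Irf7 (6.63 ± 1.21), summed to 119 to 152 CPM. The neutrophil list, led by Mmp9 (2.59 ± 1.48 CPM), S100a9 (2.09 ± 2.76) and S100a8 (1.31 ± 1.74), summed to 10.5 to 11.1 CPM in Hif1a+/- diabetic, above the 2.70 to 4.75 CPM of Hif1a+/- non-diabetic and the 4.53 to 6.34 CPM of Wt diabetic. In Wt non-diabetic it ran from 3.64 CPM to the 22.4 CPM of replicate 25, the sample rich in red cell RNA (Hbb-bs, Hba-a1 and Hbb-bt). The adipocyte list (Car3, Cfd and Cidec) summed to 4.55 to 16.2 CPM and the mesothelial list (Wt1, Upk3b and Krt19) to 5.08 to 17.3 CPM. The cardiomyocyte list (Myh6, Actc1 and Tnnt2) held 68204 to 78408 CPM. Of these genes edgeR called none in the 6 comparisons. DESeq2 called Lyve1 (log2 fold change 0.94, DESeq2 adjusted p = 0.059) and Mmp9 (1.37, DESeq2 adjusted p = 0.0801), both higher in Hif1a+/- diabetic than in Hif1a+/- non-diabetic. Both are on the study's own list of genes changed in the diabetes-exposed Hif1a+/- LV, made from these same samples. These calls restate that choice, and the sums that hold these genes are a description.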
